A study of Homo sapiens with 6 samples.

Results

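The heat shock proteins and DNAJ co-chaperones are the cell's general protein-folding machinery, and 70 of the 20115 genes in the authors' deposited table belong to them. Members were chosen by symbol alone: the HSPA, HSPB, HSPD, HSPE, HSPH and HSP90A genes, the DNAJA, DNAJB and DNAJC genes, and the regulators HSF1, HSF2 and BAG3. HSPA5, DNAJB9, DNAJC3, HSPG2, HSPBP1 and symbols ending in P plus digits were left out. HSP90AB4P, whose symbol ends in P without digits, and the pseudogene HSPA7 stayed in. A second table holds 2014 regions of readthrough (DoG, downstream of gene), where transcription continues beyond a gene's end, and 8 carry a member's name. RNA came from MDA-MB-231, a triple-negative breast cancer line, in 2 groups of 3 libraries: cells with lentiviral short hairpins against UBE3D induced by doxycycline, and control cells. Neither the hairpin of the control cells nor their exposure to doxycycline is given in the labels, and every sample is marked as pooled. The series is about CPSF73, the endonuclease that cuts pre-mRNA 3' ends, and its design text asks which genes and readthrough transcripts changed on UBE3D depletion.

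HSP70 proteins bind and release unfolded stretches of client proteins in a cycle driven by ATP. J-domain proteins of the DNAJ family bring clients to HSP70 and start ATP hydrolysis, HSP110 proteins and BAG proteins exchange the nucleotide, and HSP90 finishes the folding of many kinases and receptors. Under proteotoxic stress the transcription factor HSF1 binds heat shock elements in promoters and raises the inducible members together.

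The files hold 1 fitted comparison and no value per library, so each value below is a log2 ratio (log2 fold change) of knockdown to control with its standard error (SE), computed by the authors over all libraries. These changes are shrunken toward 0, and true folds can be larger. The labels do not say that the libraries came from separate cultures, so p-values reflect only library-to-library spread, part of which may be technical. In bulk RNA, fewer cells of a kind and less RNA per cell cannot be told apart. Depth per library is unknown. UBE3D itself was 1.74-fold lower in the authors' deposited table (log2 ratio -0.80, SE 0.37, adjusted p = 0.00632), a call lost in a Wald test on the shrunken values (adjusted p = 0.295). That test divides the shrunken change by its SE, which gave weaker evidence than the deposited p in all 20112 gene rows compared. It can only take calls away, so a call lost in it, here and below, is not by itself a sign of a fragile result. The mesenchymal-type genes known for this line, VIM, CD44, AXL, ANXA1 and CAV1, had mean normalized counts from 3869 to 11376 in the authors' deposited table. Of these 5, 3 fell (against 7.93% of all genes): CAV1 (-1.68), VIM (-0.34) and CD44 (-0.26), the last 2 calls being lost in the Wald test (adjusted p of 0.343 and 0.264). Among 7 luminal or epithelial genes the levels were mixed in the authors' deposited table, with ESR1 at 22.2, PGR at 50.2, CDH1 at 74.9, EPCAM at 382, ERBB2 at 758, KRT18 at 2490 and KRT8 at 3626 normalized counts. Of these 7, CDH1 rose (1.06, adjusted p = 0.00125, and 0.0966 by the Wald test) and EPCAM fell (-0.67, adjusted p = 7.83e-04). The blood, endothelial and fibroblast markers PTPRC, PECAM1 and COL1A1 stood at 43.7 to 168 and were not called. The part of these marker changes in the results below was not tested.

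Most of the chaperone system did not pass the test, as was so for genes in general. Not called were 63 of 70 members and 17591 of 20115 genes. At a mean of at least 100 normalized counts these were 42 of 49 members and 7811 of 9743 genes. With adjusted p below 0.05 taken from the authors' deposited table, 6 of 70 members rose (8.57%, against 4.62% of all genes) and 1 fell (1.43%, against 7.93% of all genes). The raised members were DNAJC6, HSPA12A, DNAJB11, DNAJC15, HSPA4L and DNAJC19, and the lowered member was HSPB11. The other 63 had log2 ratios from -0.31 to 0.24. The median over all 70 was -0.01, with 33 above 0, against a median of -0.03 over all genes. By abundance, 49 members had a mean of at least 100 normalized counts, and all 7 calls lay among them. At that abundance 12.2% of members rose, against 7.45% of all genes, and 2.04% fell, against 12.4% of all genes. The members below that mean, 21 of them, had a median SE of 0.26, against 0.13 for the members above it. The differences between these shares were not tested.

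**Figure D1:**
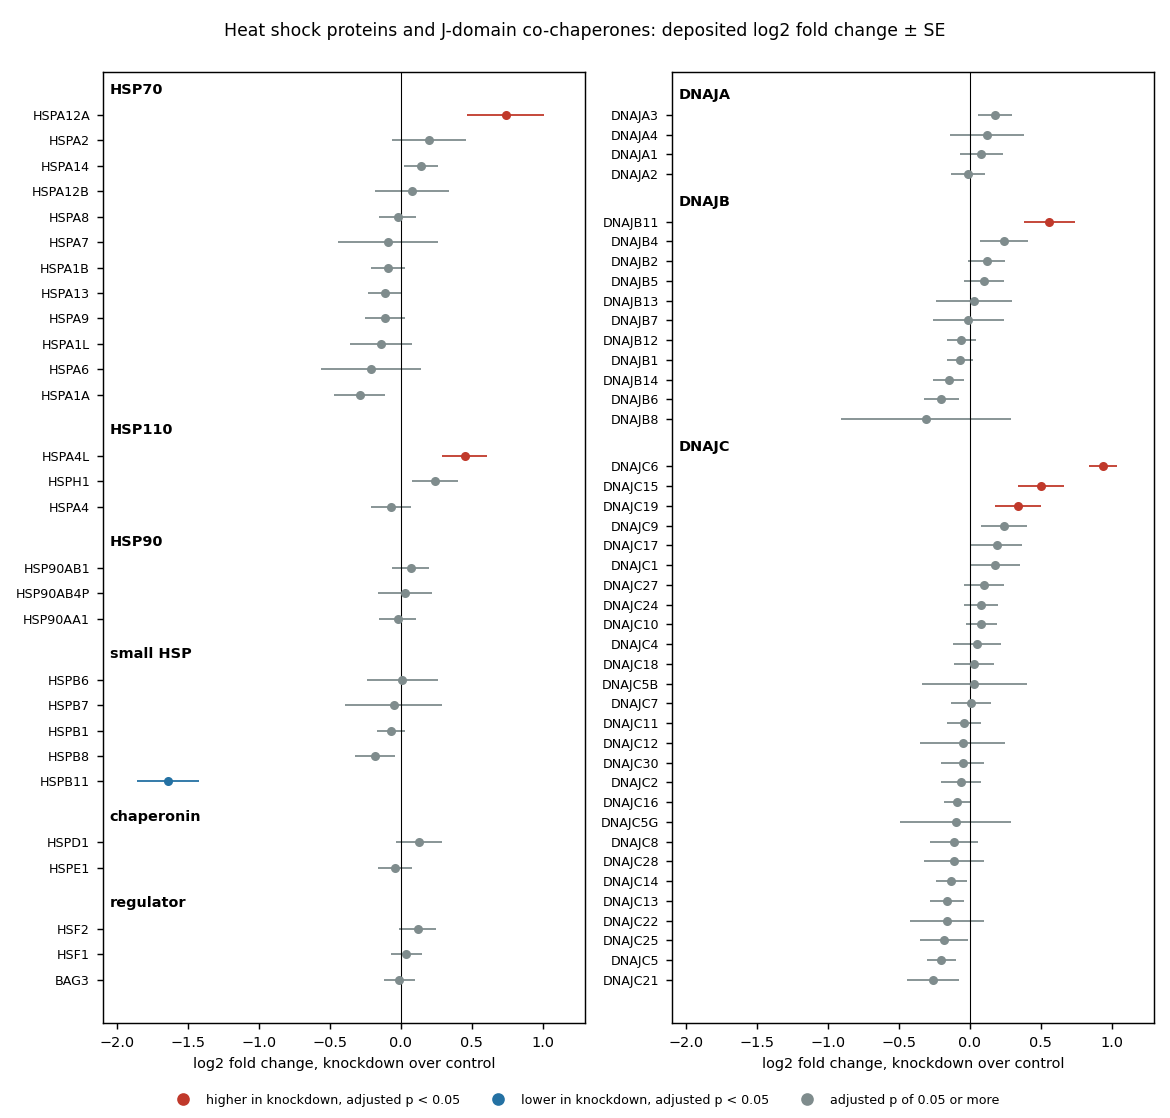
Log2 ratio (knockdown to control) with its SE for each of the 70 members, grouped by family, as the authors deposited them. Most points lie near 0 with error bars that cross it; DNAJC6 (0.94) and HSPB11 (-1.64) stand farthest out.

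No call fell among the regulators, or in a list of 14 members known as heat-inducible that was made after their values were seen. The list leaves out HSPA4L, a relative of HSPH1 that rose (log2 ratio 0.45), and its lack of calls is no test. In the authors' deposited table HSF1, the master heat shock factor, had a log2 ratio of 0.04 (SE 0.11 and adjusted p = 0.821) and HSF2, its relative, one of 0.12 (SE 0.13, adjusted p = 0.475). BAG3, an inducible co-chaperone that steers HSP70 clients to autophagy, had -0.01 (SE 0.11, adjusted p = 0.956). The list holds HSPA1A, HSPA1B, HSPA6, HSPA8, HSPB1, HSPH1, HSPD1, HSPE1, HSP90AA1, HSP90AB1, DNAJB1, DNAJB4, DNAJA1 and BAG3. It thus includes the constitutive HSP70 gene HSPA8 (-0.02) and the highly abundant HSP90AB1 (0.07). Of these 14, none passed by the authors' DESeq2 test, and 3 had an unadjusted p under 0.05. Over all genes 4.62% rose and 7.93% fell. At a mean of at least 100 normalized counts, where 13 of the 14 lie, 7.45% rose and 12.4% fell. With so few genes, the difference of the list from either background was not tested. The signs of those 3 differed. HSPA1A had a log2 ratio of -0.29 (SE 0.18 and adjusted p = 0.102), while HSPH1 had 0.24 (SE 0.16, adjusted p = 0.164) and DNAJB4 0.24 (SE 0.17, adjusted p = 0.173) in the authors' deposited table. The median of the 14 was -0.02. On the shrunken scale, which sets no bound on the true change, the 95% interval ran from -0.24 to 0.10 for DNAJB1, the main inducible J-protein of the cytosol, from -0.27 to 0.13 for the small heat shock protein gene HSPB1, and from -0.22 to 0.20 for BAG3. It was wider for HSPA1A (-0.64 to 0.06), HSPH1 (-0.08 to 0.55) and DNAJB4 (-0.09 to 0.58). HSPA6, a strictly inducible HSP70 gene, had a mean of 23.1 normalized counts, a log2 ratio of -0.21 and a wide SE of 0.35 in the authors' deposited table.

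Sites that fit the heat shock element are shown because HSF1 is known to act through such sites. RefSeq promoter windows (GRCh38.p14, from 250 bases before the start site to 50 after it) were matched for 61 of 70 members, some with more than 1 start site. DNAJC1, DNAJC22, DNAJC24, DNAJC5B, HSF1, HSP90AB4P, HSPA12B, HSPA14 and HSPA7 were not matched. The motif searched was GAA, then TTC, then GAA, with any 2 bases (NN) between neighbours, or the same on the other strand (TTC, GAA, TTC). It was present in windows of 7 members (11.5%), against 0.608% of all 27305 genes with a window. No mismatch was allowed. The windows of HSPA1A, HSPA1B, DNAJB1, DNAJB4, HSPB1, HSPE1, HSPH1 and BAG3, which are also known as heat-inducible, held no match. The 13 bases of the motif are in capitals, on the gene's strand, 5' to 3'.
HSPA8, chr11:123062173-123062197, minus strand: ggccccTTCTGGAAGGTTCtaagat
HSPA8, chr11:123062348-123062372, minus strand: gagcttGAAAGTTCCAGAAcgctgc
HSP90AA1, chr14:102087114-102087138, minus strand: gggttcTTCCGGAAGGTTCgggagg
HSP90AB1, chr6:44247772-44247796, plus strand: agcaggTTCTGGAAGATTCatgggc
HSP90AB1, chr6:44247825-44247849, plus strand: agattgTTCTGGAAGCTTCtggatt
HSPD1, chr2:197500062-197500086, minus strand: tttctgGAAAGTTCTGGAAccgagc
HSPA6, chr1:161524460-161524484, plus strand: gaaaggTTCGCGAAAGTTCgcggcg
DNAJA1, chr9:33025270-33025294, plus strand: cgggcgGAACTTTCCAGAAcgctcg
DNAJB6, chr7:157336867-157336891, plus strand: agccgaGAACCTTCGCGAAggtggg

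In the HSPD1 window a second match overlaps the one shown. None of the 7 genes passed the adjusted p threshold in the authors' deposited table (4.62% of all genes rose and 7.93% fell), and 1, DNAJB6, had an unadjusted p under 0.05. Their log2 ratios ran from -0.21 for HSPA6 to 0.13 for HSPD1, with a median of -0.02. A match of letters does not show that a factor is bound there. Lack of a match to this strict motif does not show that a promoter has no heat shock element, so the 7 do not stand for all HSF1 targets.

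The most abundant chaperones per length of exon were the cytosolic HSP90 genes and the constitutive HSP70. HSP90AB1 had 7322 mean normalized counts per kb of exon, HSP90AA1 4272 and HSPA8 3501, computed from the authors' deposited table and exon lengths of GENCODE 29. None of the 3 was called. Their log2 ratios were 0.07 (SE 0.13), -0.02 (SE 0.13) and -0.02 (SE 0.13) in the authors' deposited table. HSPA9, the mitochondrial HSP70, stood at 460 counts per kb with a log2 ratio of -0.11 (SE 0.14), and HSPA1B at 432 with -0.09 (SE 0.12). HSPA1A and HSPA1B encode nearly the same protein, and 71.2% of the 75-base windows of the HSPA1A transcript also occur in HSPA1B. The sources used here do not tell how reads were split between this pair, and both values are uncertain. The mitochondrial chaperonin genes HSPD1 (1209 counts per kb, log2 ratio 0.13, SE 0.16) and HSPE1 (119 counts per kb, -0.04, SE 0.12), which form the folding chamber and its lid, were not called in the authors' deposited table. HSP90AB4P, at a mean of 33.4 normalized counts, had 0.03 (SE 0.19).

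Of 12 HSP70 genes 1 rose, a divergent one, against 4.62% of all genes. HSPA12A, a distant relative with a divergent ATPase domain, was 1.67-fold higher (log2 ratio 0.74, SE 0.27, adjusted p = 0.00191) with a mean normalized count of 106 in the authors' deposited table. Its close relative HSPA12B had 0.08 (SE 0.26). HSPA12A lies on chromosome 10 (116671192 to 116850236, GRCh38, minus strand), where 725 bases overlap the opposite-strand gene ENO4 (log2 ratio 0.13, adjusted p = 0.536 in the authors' deposited table). The call of HSPA12A was lost in the Wald test on shrunken values (adjusted p = 0.0790).

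The HSP110 proteins, which open the nucleotide pocket of HSP70, had 1 of 3 genes raised, against 4.62% of all genes. All 3 have a mean of at least 100 normalized counts, where 7.45% of all genes rose. HSPA4L was 1.37-fold higher (log2 ratio 0.45, SE 0.16, adjusted p = 0.00420) with a mean normalized count of 839 in the authors' deposited table, beside 0.24 for HSPH1 and -0.07 (SE 0.14) for HSPA4. HSPA4 is the most abundant of them per length of exon, with 523 counts per kb, against 221 for HSPH1 and 72.2 for HSPA4L. HSPA4L lies on chromosome 4 (127781821 to 127840733, plus strand), and its call was lost in the Wald test (adjusted p = 0.0860).

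Among the small heat shock protein symbols HSPB11 fell, and it is a member by name more than by function. HSPB11 was 3.12-fold lower in the authors' deposited table (log2 ratio -1.64, SE 0.22, adjusted p = 1.15e-13), with a mean normalized count of 301. Its product, also called IFT25, is a subunit of the IFT-B complex, which moves cargo along cilia, and pairs there with IFT27. The holdase HSPB1 had -0.07 (SE 0.10) and HSPB8, the partner of BAG3, had -0.18 (SE 0.14, adjusted p = 0.257) in the authors' deposited table. HSPB6 had 0.01 (SE 0.25) and HSPB7 -0.05 (SE 0.34) in the authors' deposited table, the second at a mean of 18.6 normalized counts. HSPB11 lies on chromosome 1 (53916574 to 53945929, minus strand). LRRC42, which starts 148 bases away on the other strand, had a log2 ratio of -0.04 (SE 0.11 and adjusted p = 0.853) in the authors' deposited table.

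None of the IFT-B partners of HSPB11 passed the test in its direction. In a list of 16 other IFT-B genes, chosen after their values were seen, 5 rose (4.62% of all genes did) and none fell, going by the authors' deposited table, with 6 at an unadjusted p under 0.05 and a median log2 ratio of 0.07. At a mean of at least 100 normalized counts, where 12 of the 16 lie, 7.45% of all genes rose. The raised genes were IFT27 (0.58, SE 0.30), CLUAP1 (0.50, SE 0.19), IFT20 (0.43, SE 0.20), IFT46 (0.36, SE 0.18) and TTC26 (0.34, SE 0.13). All 5 calls were lost in the Wald test on shrunken values (adjusted p from 0.107 for TTC26 to 0.438 for IFT27). IFT88 and IFT172, core subunits, had 0.06 (SE 0.14) and 0.01 (SE 0.13). LZTFL1, a regulator of the BBSome that works with IFT27 in ciliary export, was also picked after its value was seen: it had a log2 ratio of 1.07 (SE 0.15 and adjusted p = 7.64e-12) in the authors' deposited table, and 3.63e-10 by the Wald test.

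**Figure D2:**
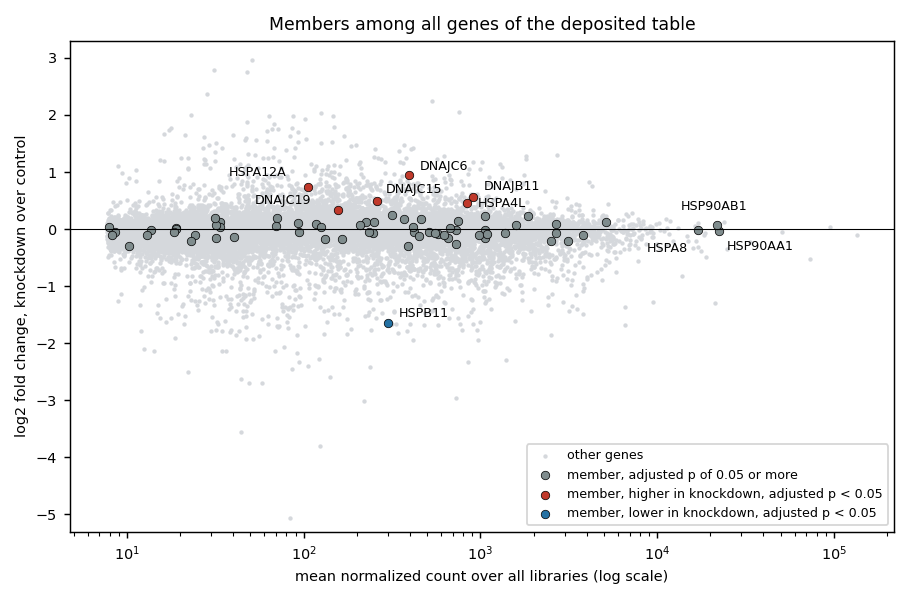
Log2 ratio (knockdown to control) against mean normalized count on a log axis, for all 20115 genes (light grey) and the 70 members (outlined). The raised members lie between means of 106 and 908, and HSP90AB1, HSP90AA1 and HSPA8 lie near 0 at the right.

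Of 42 DNAJ genes 4 rose and none fell in the authors' deposited table (4.62% of all genes rose and 7.93% fell), with 10 at an unadjusted p under 0.05 and a median of 0.00. The DNAJA genes, the general cytosolic and mitochondrial partners of HSP70, were not called: DNAJA1 (983 counts per kb) had a log2 ratio of 0.08 (SE 0.15), DNAJA2 -0.01 (SE 0.12), DNAJA3 0.18 (SE 0.12, adjusted p = 0.220) and DNAJA4 0.12 (SE 0.26). Of 11 DNAJB genes 1 rose. DNAJB11, a J-protein of the endoplasmic reticulum (ER) lumen that works with BiP, was 1.48-fold higher (log2 ratio 0.56, SE 0.18, adjusted p = 0.00111) with a mean normalized count of 908 in the authors' deposited table. It lies on chromosome 3 (186567403 to 186585800, plus strand) and overlaps 3141 bases of the opposite-strand gene TBCCD1, which had 0.13 (SE 0.13, adjusted p = 0.419). DNAJB11 kept its call in the Wald test (adjusted p = 0.0321). DNAJB1 had -0.07 (SE 0.09) and DNAJB6, known for holding back protein aggregation, -0.20 (SE 0.12, adjusted p = 0.148) in the authors' deposited table. DNAJB8 had -0.31 (SE 0.60, adjusted p = 0.0822) at a mean of only 10.3 normalized counts.

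Of 27 DNAJC genes, whose J domains serve special sites in the cell, 3 rose, against 4.62% of all genes. DNAJC6, which encodes auxilin and brings HSPA8 to clathrin-coated vesicles to strip their coat, was 1.92-fold higher in the authors' deposited table (log2 ratio 0.94, SE 0.10, adjusted p = 5.64e-19) with a mean normalized count of 394, and stayed called by the Wald test (adjusted p = 1.85e-17). It lies on chromosome 1 (65248219 to 65415869, plus strand). The next gene on that strand, LEPROT, starts 4718 bases past its end and had a log2 ratio of -0.02 (adjusted p = 0.920), while LEPR, which overlaps LEPROT, had 0.33 (SE 0.16, adjusted p = 0.0378) in the authors' deposited table. Genes that act with auxilin were looked up after the values of DNAJC6 were known. GAK, its widely expressed relative, had -0.03 (SE 0.10), and the clathrin chains CLTA, CLTB and CLTC had 0.03, 0.34 and -0.26 (adjusted p of 0.866, 0.0837 and 0.0987) in the authors' deposited table.

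DNAJC15 and DNAJC19, related J-proteins of the mitochondrial inner membrane, both rose. DNAJC15 was 1.41-fold higher (log2 ratio 0.50, SE 0.16, adjusted p = 0.00156) with a mean normalized count of 259, and DNAJC19 1.27-fold higher (0.34, SE 0.16, adjusted p = 0.0344) at a mean of 156, in the authors' deposited table. DNAJC15 kept its call in the Wald test (adjusted p = 0.0387) and DNAJC19 did not (adjusted p = 0.344). Of the DNAJC19 transcript, 8.84% of the 75-base windows also occur in the pseudogene DNAJC19P9. DNAJC15 lies on chromosome 13 (43023203 to 43114224, plus strand) and DNAJC19 on chromosome 3 (180983709 to 180989774, minus strand). Of 8 measured genes of the import machinery these proteins serve, in a list made after their values were seen, none was called. Over all genes 4.62% rose and 7.93% fell. At a mean of at least 100 normalized counts, where all 8 lie, 7.45% rose and 12.4% fell. None of the 8 had an unadjusted p under 0.05. Among them TIMM44 had a log2 ratio of 0.14 (SE 0.13) and TIMM23 -0.13 (SE 0.13) in the authors' deposited table.

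The other DNAJC genes were not called. DNAJC5, the cysteine string protein of secretory vesicles and the most abundant DNAJC gene per length (478 counts per kb), had a log2 ratio of -0.20 (SE 0.10 and adjusted p = 0.0857) in the authors' deposited table. DNAJC9, a histone chaperone, had 0.24 (SE 0.16, adjusted p = 0.174), and DNAJC8, which associates with the spliceosome, -0.11 (SE 0.17, adjusted p = 0.586). DNAJC21, which takes part in ribosome assembly, lay lowest of this class at -0.26 (SE 0.18, adjusted p = 0.157). By compartment, 1 of 9 ER members, 2 of 8 mitochondrial members and 3 of the 53 others rose (against 4.62% of all genes), with medians of -0.06, 0.04 and -0.01. The 1 lowered member, HSPB11, is among the 53 others.

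Readthrough past chaperone genes was measured in 8 regions, too few to say whether it was called as often as readthrough in general. Of the 8 DoG regions, 1 rose (12.5%, against 12.7% of all regions) and 1 fell (12.5%, against 16.1% of all regions) with adjusted p below 0.05 in the authors' deposited table. The region past HSPA4L had a log2 ratio of 0.31 (SE 0.14 and adjusted p = 0.0254), beside 0.45 for its host, and no gene of the table lies within 10 kb past the host's end. That call was lost in the Wald test (adjusted p = 0.0993). The region past HSP90AB1 fell, with -0.28 (SE 0.09, adjusted p = 0.00428), beside 0.07 for its host. SLC35B2, an opposite-strand gene that ends 208 bases past HSP90AB1, was also lower in the authors' deposited table (-0.21, SE 0.08, adjusted p = 0.0449), and although the libraries kept strand, whether strands were counted apart is not given in the sources used here. Its part in the region's value was not tested.

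HSPB11 stood apart from its own readthrough region. The region had a log2 ratio of 0.31 (SE 0.18 and adjusted p = 0.0726) in the authors' deposited table, while the gene fell by 1.64. Over all libraries the region had a mean normalized count of 256, close to the 301 of the gene. How much of the region's signal is readthrough from HSPB11 was not tested. The difference of region minus gene was 1.95 (SE 0.28), the second highest of 1798 regions with a host in the gene table (adjusted p = 3.85e-09, normal test of the difference with Benjamini-Hochberg adjustment over all 1798). Of all these regions 8.68% differed from their host in either direction, and 4.06% with the region higher. DIO1, on the opposite strand and 5488 bases past the end of HSPB11, was higher in the authors' deposited table (0.61, SE 0.44, adjusted p = 0.0400) at a mean of 29.1 normalized counts, and its part in the region's value was not tested. For the remaining 7 regions no difference from the host passed an adjusted p of 0.05. The difference was -0.36 (SE 0.16, adjusted p = 0.189) for HSP90AB1 and -0.14 (SE 0.21, adjusted p = 0.807) for HSPA4L.

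**Figure D3:**
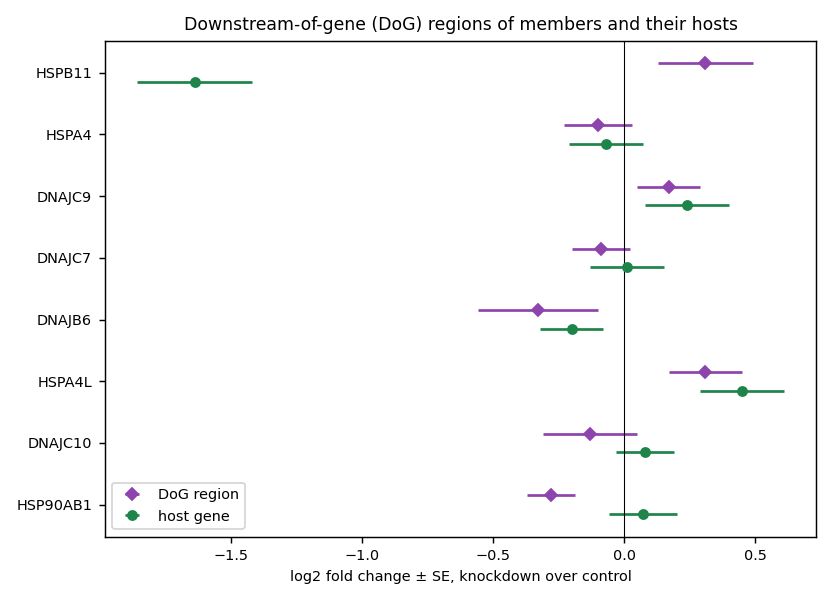
Log2 ratio with its SE (knockdown to control) of the 8 DoG regions that carry a member's name (purple diamonds) and of their host genes (green circles), from the highest difference of region minus host downward. For HSPB11 the region lies at 0.31 and the gene at -1.64.

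The other 5 regions were past DNAJC9 (0.17, SE 0.12), DNAJC7 (-0.09, SE 0.11), HSPA4 (-0.10, SE 0.13), DNAJC10 (-0.13, SE 0.18) and DNAJB6 (-0.33, SE 0.23, adjusted p = 0.0944) in the authors' deposited table. Opposite-strand genes overlap the ends of DNAJC7 (CNP, mean normalized count 1222, log2 ratio 0.02) and DNAJC9 (FAM149B1, mean 124, 0.21). The DNAJC7 region had a mean of 1295, above the 674 of its host. The part of these neighbours in the values of the 2 regions was not tested. DNAJC7, which hands clients between HSP70 and HSP90, and DNAJC10, an ER reductase, had gene values of 0.01 (SE 0.14) and 0.08 (SE 0.11). A region named for HSPA8 together with SNORD14C, SNORD14D and SNORD14E was not counted, since its name is merged. It had 0.36 (SE 0.23, adjusted p = 0.0725) in the authors' deposited table. A region named for ADAM10 together with HSP90AB4P was left out for the same reason and had 0.03 (SE 0.11, adjusted p = 0.891).

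Genes that work beside the members also showed single changes. The TRiC chaperonin, which folds actin and tubulin, had 1 of 8 subunits lowered, CCT8 (log2 ratio -0.35, SE 0.18, adjusted p = 0.0450), with a median of 0.01. Of 6 prefoldin genes, which feed TRiC, none was called or had an unadjusted p under 0.05. Of 18 HSP90 co-chaperones 2 fell and none rose. PTGES3, the p23 protein that stabilises closed HSP90, had a log2 ratio of -0.74 (SE 0.14 and adjusted p = 4.56e-07) in the authors' deposited table, and CHORDC1 one of -0.39 (SE 0.16, adjusted p = 0.0132). The median of that list was 0.08. Of 10 nucleotide exchange factors, BAG5 fell by 0.50 (SE 0.13, adjusted p = 7.34e-05) and HYOU1, the HSP110 of the ER, rose by 0.43 (SE 0.16, adjusted p = 0.00668) in the authors' deposited table. That list had a median of -0.12.

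ER chaperones outside the members split in the same way, with 1 of 10 raised and 1 lowered. DNAJB9 rose by 0.49 (SE 0.17, adjusted p = 0.00265) and DNAJC3, which inhibits the kinase PERK, fell by 0.58 (SE 0.13, adjusted p = 1.64e-05) in the authors' deposited table. HSPA5, the ER HSP70 BiP, had -0.06 (SE 0.13, adjusted p = 0.743). Of 10 mitochondrial chaperones and proteases 2 fell, the inner membrane proteases AFG3L2 (-0.63, SE 0.17, adjusted p = 2.35e-04) and YME1L1 (-0.49, SE 0.19, adjusted p = 0.00612), and the median was -0.09. Of 15 HSF1 regulators and further HSF1 targets 2 rose in the authors' deposited table: HSBP1, which binds HSF1 (0.46, SE 0.18, adjusted p = 0.00700), and ATF5, a factor of the mitochondrial stress response (0.45, SE 0.14, adjusted p = 0.00154). Read against 4.62% raised and 7.93% lowered over all genes, each of these 7 lists, from TRiC to the HSF1 regulators, holds at most 2 calls in a direction. Most genes of these lists have a mean of at least 100 normalized counts, where 7.45% of all genes rose and 12.4% fell. The difference of the lists from either background was not tested. The calls of CCT8, CHORDC1, HYOU1, DNAJB9, YME1L1 and HSBP1 were lost in the Wald test on shrunken values (adjusted p from 0.0629 to 0.463).

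**Figure D4:**
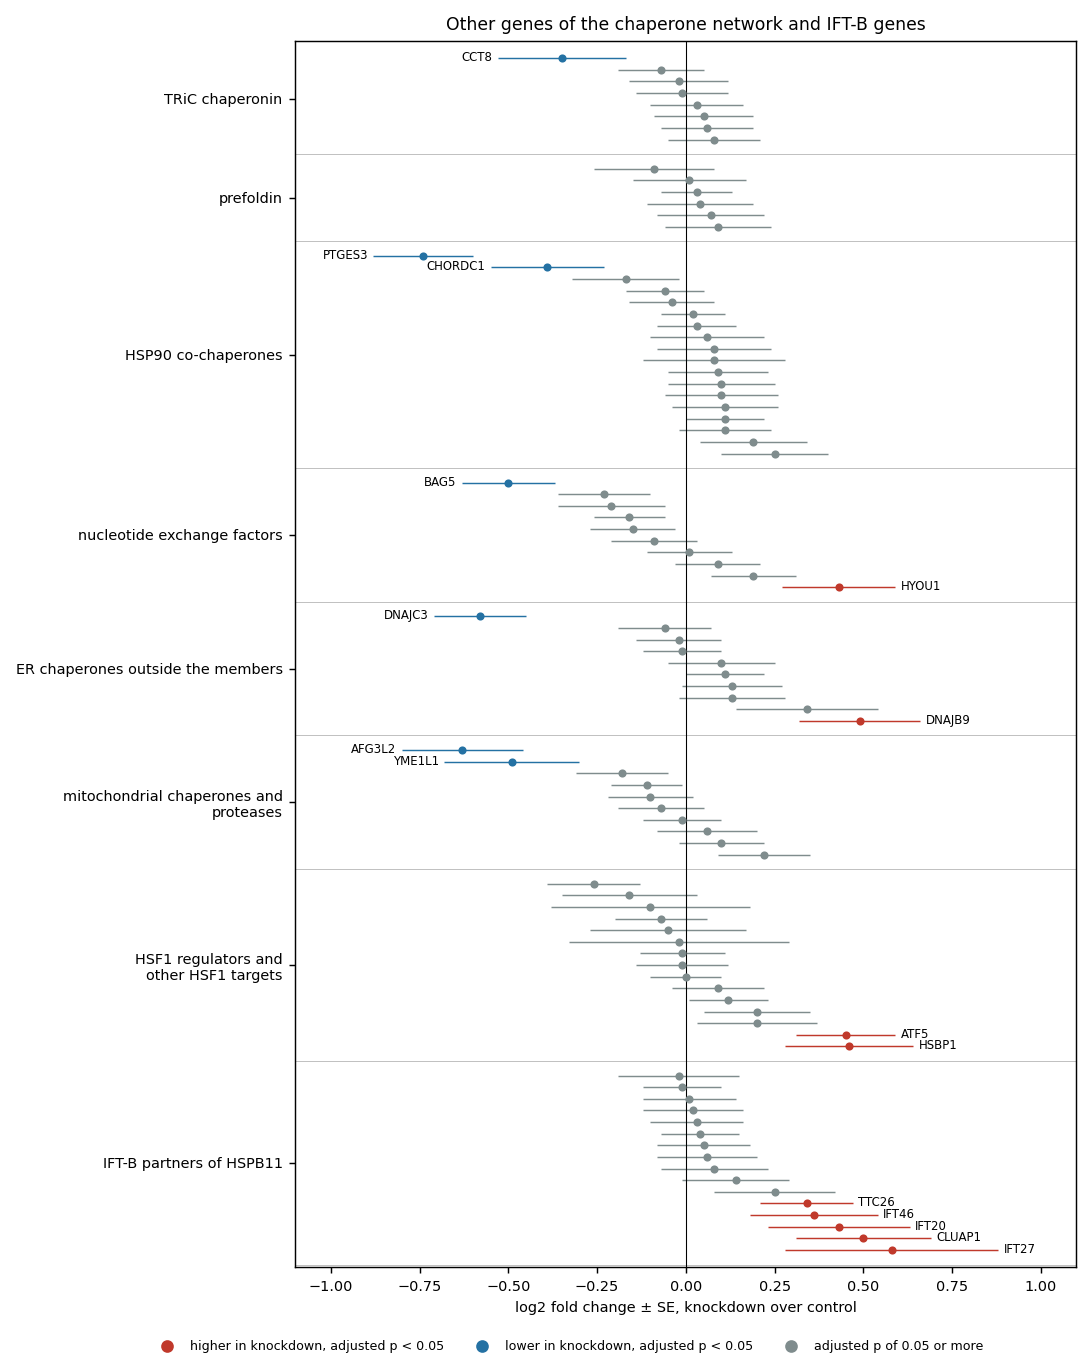
Log2 ratio with its SE (knockdown to control) of genes outside the 70 members, by list, 1 point per gene, except that the HSF1 list repeats the TRiC gene TCP1. Called genes are named; PTGES3 lies lowest at -0.74, and the IFT-B list has 5 raised genes.

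A word of 7 bases, GATTGAA, is frequent in the 3' untranslated regions of genes lowered in these data: among genes averaging 100 or more normalized counts it occurs in 27.6% of the 1156 lowered ones, against 11.3% of all 9127. The 9127 include the lowered genes. Since the word was found on these data, neither its excess among lowered genes nor the members give an independent test of it. Of 68 members with an annotated 3' region, whatever their mean count, 5 hold it (7.35%), so this share is not on the same footing. The length of the 3' region, from 108 bases for DNAJB8 to 17332 for DNAJC10, was not taken into account. These are DNAJC6, which rose, and DNAJB14 (-0.15), DNAJC21 (-0.26), DNAJC22 (-0.16) and DNAJC25 (-0.18), which were not called in the authors' deposited table. HSPB11, the sole lowered member, does not hold the word in its 522 annotated bases.

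Shared sequence limits some of these values. In 11 of 70 members more than 10% of the 75-base windows of the longest transcript also occur in transcripts of another gene. Beside HSPA1A and HSPA1B these include HSPA6 (shared with HSPA7), DNAJC14 (26.9%), HSPE1 (22.3%) and the raised gene DNAJB11 (16.3%, with AC068631.2). For DNAJC6, DNAJC15, HSPA12A and HSPB11 no window was shared.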

How the data were processed

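Per the labels' protocols, total RNA without rRNA was sequenced from both ends with a read length of 75 bases and strand kept, in 3 knockdown and 3 control libraries. Per the submitters' processing notes, reads were handled with cutadapt 1.8.1, STAR 2.5.2b and DESeq2 on hg38. The sources used here name no annotation, counting tool, strand setting of the counting or method of DoG calling. Per the file headers, the authors' deposited tables give a signal (the normalized count averaged over libraries), a log2 fold change with SE, a p-value, an adjusted p-value and a true or false mark of their own, which was not used. Benjamini-Hochberg adjustment over each table's rows gives back the adjusted values. In all 70 members the change over its SE is smaller than a normal deviate of its p-value would be, as with shrunken values. The smallest mean among genes is 7.74. Depth is unknown. Calls used an adjusted p under 0.05 over the whole table.

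DoG and host changes were fitted apart and their covariance was taken as 0. Positions, exon lengths, 3' regions and transcripts came from GENCODE 29 (GRCh38), matched by symbol for 69 of 70 members. Members, lists and compartments were chosen with earlier results of these data known. The text names members with an adjusted p under 0.15, the regulators, the 3 of each family with most counts per kb of exon, members with a DoG region, and up to 3 called genes of each list. Other genes were chosen after their values were seen. Computation used scipy 1.17.1, pandas 2.3.3 and numpy 2.4.6 in Python 3.11.15, and the steps were tested on simulated data. The alternatives were other thresholds, a Wald test on shrunken values, a shift to a median of 0 and minimum mean counts.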

Additional observations from a re-analysis of the deposited data

How the results depend on the processing

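The count of raised members was 6, and it was 3 in the Wald test on shrunken values and 3 when that test was shifted to a median of 0, the 3 being DNAJC6, DNAJB11 and DNAJC15 both times. The count of lowered members was 1, and 3 at an adjusted p under 0.1, with DNAJC5 and DNAJB8 added. Raised DoG regions numbered 1, and 0 at an adjusted p under 0.01, 0 in both Wald tests and 2 at an adjusted p under 0.1, when 2 were lowered. At an unadjusted p under 0.05 there were 4 in all. The other settings left the counts within 1.5 times. The medians of members (-0.01 to 0.01) and of their DoG regions (-0.09 to -0.08) moved by less than the typical SE. No called gene changed sign, but the settings could not have shown that. They kept the deposited log2 fold changes, apart from a shift by the median (-0.03 for genes and -0.01 for DoG regions). A minimum mean count of 10 was added after seeing the data, and it changed no call of a member.

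No paired analysis was possible because the files hold no value per library, although the labels number the replicates, and for the same reason the planned fits that leave out a replicate were not run. The precision of each value is therefore known from its SE alone.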
